A study of Mus musculus with 8 samples.

Results

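The class I set is 10 genes of MHC class I antigen presentation, followed in polyA RNA sequencing of primary cells from mouse calvaria (the roof of the skull) that the labels call osteoblasts. They were chosen by symbol, and 10 of 10 were found among the 25239 gene symbols of the count table: the heavy chains H2-K1 and H2-D1, the light chain B2m, the transporter and loading genes Tap1, Tap2 and Tapbp, the immunoproteasome subunits Psmb8, Psmb9 and Psmb10, and the transactivator Nlrc5. The 8 libraries fall into 4 from mice labelled as a knockout of SphK2 (sphingosine kinase 2) under OSX, the osteoblast lineage factor osterix, and 4 from littermate controls labelled WT. In each group the titles number the libraries 1 to 4. The labels name no driver line or floxed allele beyond OSX-SphK2, no age and no strain, and the number of mice per library is not stated. Each p-value therefore rests on variation among libraries, some of which may be technical.

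MHC class I molecules carry short peptides from inside the cell to its surface, where cytotoxic T cells and natural killer cells read them. The peptides are cut by the proteasome, whose catalytic subunits can be replaced by inducible immunoproteasome subunits. They are then pumped into the endoplasmic reticulum by the TAP transporter and loaded onto a heavy chain paired with beta-2 microglobulin. Nearly all nucleated cells make class I molecules, and interferons, above all interferon gamma, raise the whole pathway, in part through IRF1 and NLRC5.

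The libraries held 14347495 to 17928713 counts in the KO-labelled group and 14571389 to 19065421 in the controls. The targeted gene did not pass the test. Sphk2 stood at 69.7, 72.3, 72.1 and 131 CPM (counts scaled to library size by TMM) in KO-labelled 1 to 4, against 75.8, 64.2, 82.5 and 134 CPM in controls 1 to 4, with a log2 fold change of -0.05 (SE 0.30) and an edgeR adjusted p of 1. Counts cover the whole gene, so this does not check the labels, and every direction below is that of the libraries labelled KO. The libraries numbered 4 stood apart from the rest in both groups on the first principal component, which held 73.7% of the variance. Macrophage markers together reached 29357 to 49851 CPM in KO-labelled libraries and 29571 to 39147 CPM in controls. The osteoblast markers summed to 2090 to 12566 CPM and 3663 to 13689 CPM in the same groups, mostly from Col1a1 and Col1a2, and the osteoblast marker Bglap stood at 0 to 42.3 CPM in KO-labelled libraries and 0.22 to 0.58 CPM in controls. In bulk RNA fewer cells of a type and less RNA per cell cannot be told apart.

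None of the 10 genes differed past the threshold between KO-labelled and control libraries. All 10 passed the filter on low counts, and the groups overlapped in 10 of 10, where 3.59% of all genes had groups that did not. With edgeR's quasi-likelihood test 0 rose and 0 fell at an adjusted p under 0.05, where 0% of the 12837 genes tested were called, and 0 of the 10 had an unadjusted p under 0.05. Of the members 1 had a positive and 9 a negative log2 fold change, with a median of -0.09, against -0.016 over all genes tested. DESeq2 also called 0 of the members, beside 1.37% of all genes (0.989% higher, 0.382% lower), and limma-voom with quality weights 0, beside 8.58% higher and 7.46% lower. Leaving out 1 of the 2 high libraries numbered 4 leaves the other unmatched, and the median over the members was then -0.61 without KO-labelled 4 and 0.36 without control 4. Without both it was -0.06, and 7 of 10 members kept their sign. With the library number as a block, the intervals were narrower and 0 members passed, beside 2.49% of all genes, 1.31% higher and 1.18% lower.

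**Figure D1:**
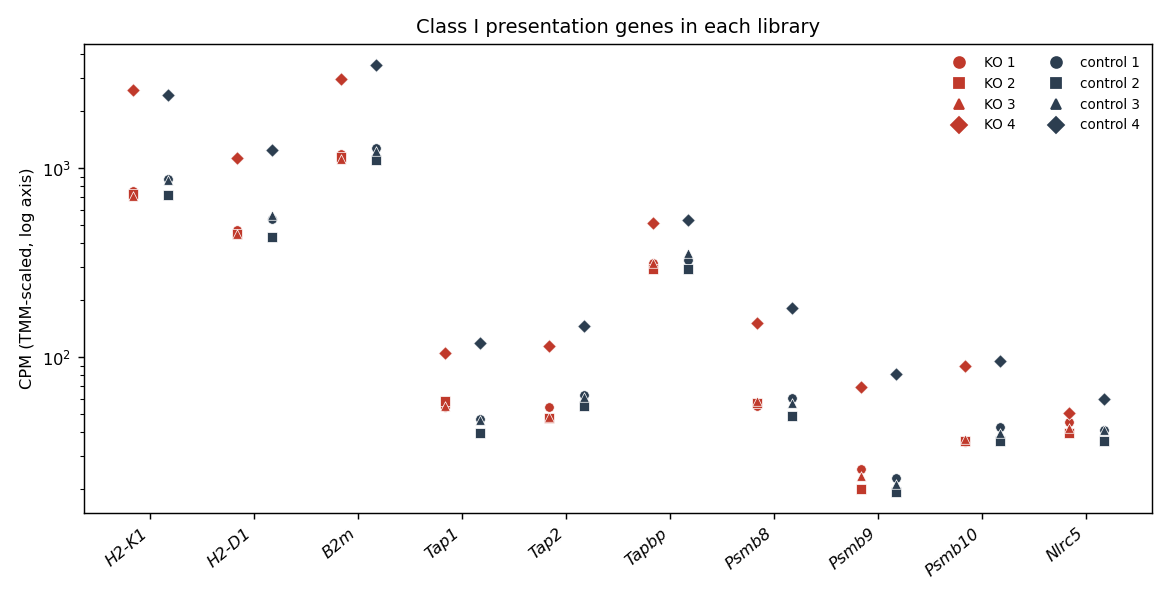
CPM of the 10 genes in each library on a log axis, KO-labelled libraries in red to the left of controls in dark blue, with 1 symbol per library number. The diamonds, number 4, lie above the other libraries of their group for all 10 genes, and red and blue overlap throughout.

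The heavy chains form the peptide groove of the molecule that T cells recognise. H2-K1 lies on chromosome 17 of GRCm38 at chr17:33996017-34000347 on the minus strand. It stood at 758, 729, 713 and 2579 CPM in KO-labelled 1 to 4, against 878, 716, 869 and 2433 CPM in controls 1 to 4. Number 4 was high in both groups and the groups overlapped. The log2 fold change was -0.03 (SE 0.58, 95% interval -1.37 to 1.30, edgeR adjusted p = 1), and a two-sided exact permutation over libraries gave p = 0.629, with 0.0286 the lowest value that 4 against 4 allows. H2-D1, at chr17:35262730-35267499 on the plus strand, stood at 469, 449.6, 449.9 and 1132 CPM in KO-labelled libraries and 536, 431, 561 and 1248 CPM in controls. Controls 1 and 3 were above every KO-labelled library except number 4, while control 2 was below them. Its log2 fold change was -0.15 (SE 0.44, edgeR adjusted p = 1, exact permutation p = 0.543).

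The light chain beta-2 microglobulin is shared by all class I heavy chains and is needed for them to leave the endoplasmic reticulum. B2m, at chr2:122147686-122153083 on the plus strand, stood at 1192, 1148, 1112 and 2962 CPM in KO-labelled 1 to 4, against 1277, 1097, 1229 and 3497 CPM in controls 1 to 4. Numbers 1 to 3 of both groups lay close together. The log2 fold change was -0.15 (SE 0.49, edgeR adjusted p = 1, exact permutation p = 0.571), and -0.10 with a 95% interval of -0.29 to 0.09 when libraries were paired by number.

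The promoters of these 3 genes are shown for the motif letters they share. The windows run from 250 bases before to 50 after the start site, from RefSeq on GRCm38.p6, 5′ to 3′ on the strand of the gene. Capitals mark every match, on either strand, to the interferon-stimulated response element (GAAA and GAAA with NN between), the gamma-activated site (TTCNNNGAA), kappa B (GGG, NN, TT, N and CC in a row), the CCAAT box (CCAAT) and the cyclic AMP response half-site (TGACG). The H2-K1 window is chr17:34000284-34000583 on the minus strand, 1 of 2 listed for the gene, that of H2-D1 is chr17:35262844-35263143 on the plus strand, and that of B2m is chr2:122147437-122147736 on the plus strand.
H2-K1: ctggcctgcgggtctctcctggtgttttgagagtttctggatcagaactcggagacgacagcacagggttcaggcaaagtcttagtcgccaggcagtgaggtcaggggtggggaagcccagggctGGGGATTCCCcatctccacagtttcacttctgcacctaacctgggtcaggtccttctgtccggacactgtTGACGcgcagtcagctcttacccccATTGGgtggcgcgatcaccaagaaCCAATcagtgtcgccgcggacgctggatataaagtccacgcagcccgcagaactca
H2-D1: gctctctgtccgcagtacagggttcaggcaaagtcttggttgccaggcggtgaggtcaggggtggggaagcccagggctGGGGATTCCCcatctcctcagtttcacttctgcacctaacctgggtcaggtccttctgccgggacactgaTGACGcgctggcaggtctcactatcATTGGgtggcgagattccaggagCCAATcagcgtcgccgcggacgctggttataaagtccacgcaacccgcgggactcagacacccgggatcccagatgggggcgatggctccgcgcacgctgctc
B2m: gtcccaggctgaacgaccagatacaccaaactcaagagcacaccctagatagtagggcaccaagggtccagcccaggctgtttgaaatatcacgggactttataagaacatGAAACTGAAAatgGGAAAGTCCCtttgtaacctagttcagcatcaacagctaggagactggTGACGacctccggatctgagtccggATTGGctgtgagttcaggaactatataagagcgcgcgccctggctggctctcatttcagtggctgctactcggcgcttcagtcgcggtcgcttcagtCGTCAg

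Of the 10 genes, 8 had a window in the RefSeq table, and Tap2 and Nlrc5 had none. The kappa B letters were in the windows of 3 of 8 members, H2-K1, H2-D1 and B2m, and in 4.79% of the 32851 windows of all genes. The exact letters set above for the response element were in 1 of 8, B2m, beside 3.44% of all windows. Those of the gamma-activated site were in 1 of 8, Psmb8, beside 8.3%. CCAAT was in 6 of 8 beside 37.4% of all windows, and TGACG in 5 of 8 beside 20.8%. H2-K1 and H2-D1 carried kappa B, TGACG and 2 CCAAT matches in the same order. A match is a description of these letters, not a binding site, and a window without a match may hold a variant of the element.

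The TAP transporter is a dimer of TAP1 and TAP2 that moves peptides into the endoplasmic reticulum. Its subunit genes had opposite signs of difference in numbers 1 to 3. Tap1, at chr17:34187553-34197225 on the plus strand, stood at 54.3, 58.4, 55.2 and 104.6 CPM in KO-labelled 1 to 4, against 46.8, 39.5, 46.6 and 118 CPM in controls 1 to 4. In numbers 1 to 3 every KO-labelled library was above every control, and in number 4 the order was the opposite. The log2 fold change was 0.12 (SE 0.40, edgeR adjusted p = 1, exact permutation p = 0.486). In numbers 1 to 3 alone it was 0.34 (SE 0.08, edgeR adjusted p = 0.024), past the threshold, where 7.78% of all genes were called higher and 6.29% lower.

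Tap2, at chr17:34203527-34216321 on the plus strand, stood at 54.5, 47.4, 48.2 and 114.6 CPM in KO-labelled 1 to 4, against 63.2, 55.2, 61.1 and 146 CPM in controls 1 to 4. It was the only member lower than its same-numbered control in 4 of 4 numbers, with ratios of 0.863, 0.858, 0.790 and 0.783, where 13.4% of all genes tested were lower in 4 of 4 and 28.8% had 1 sign in 4 of 4. The log2 fold change was -0.30 (SE 0.42, edgeR adjusted p = 1, exact permutation p = 0.457). With the block it was -0.28 (SE 0.05, 95% interval -0.41 to -0.15) and the edgeR adjusted p of 0.0545 missed the threshold. With the block in numbers 1 to 3 alone it fell, at -0.25 with an edgeR adjusted p of 0.0104, where 11.9% of all genes were called lower and 24.2% in either direction.

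**Figure D2:**
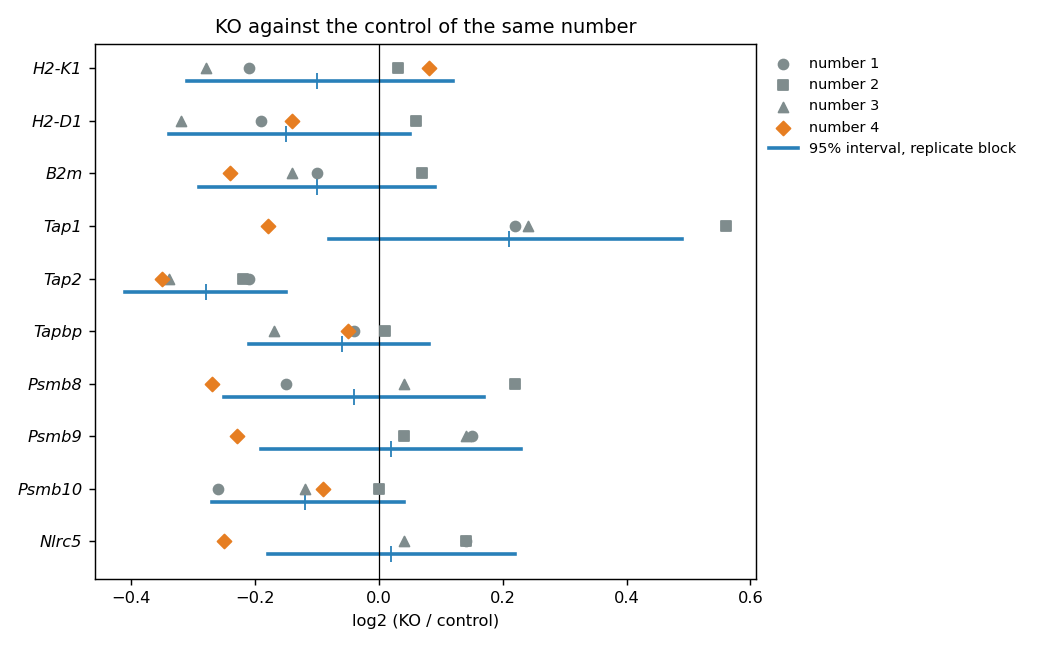
Log2 ratio of each KO-labelled library to the control of the same number for the 10 genes, grey for numbers 1 to 3 and orange for number 4, with the 95% interval from edgeR with the number as a block in blue. The Tap2 interval lies below 0, and those of the other 9 genes include 0.

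The ratio of Tap1 to Tap2 counts within a library, which no library scaling can move, was 0.997, 1.23, 1.14 and 0.913 in KO-labelled 1 to 4, against 0.740, 0.716, 0.764 and 0.809 in controls 1 to 4. Every KO-labelled library was above every control, number 4 included. This pair was chosen after its values were seen and no test is given. Of the 45 pairs of members, 1 separated the groups in this way, which is 2.22%, beside 3.8% of all pairs of genes tested. Tap1 shares 212 bases with Psmb9 on the opposite strand, and Tap2 overlaps the opposite-strand genes Gm20496 and Gm15821 over 1923 and 3148 bases. B2m lies wholly within Patl2 and Psmb10 shares 2710 bases with Gm16156, both on opposite strands, and Psmb8 shares 2139 with Gm20496. The sources used here do not give whether counting used strand, so reads in such overlaps cannot be told apart.

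Tap1 and Psmb9 are read in opposite directions from RefSeq start sites 226 bases apart, and their windows share 275 bases. The overlap of 212 bases given above is from GENCODE, which places the starts of these genes elsewhere. The Tap1 window, chr17:34187306-34187605 on the plus strand, is shown because it holds the region common to both genes, with capitals as above.
Tap1: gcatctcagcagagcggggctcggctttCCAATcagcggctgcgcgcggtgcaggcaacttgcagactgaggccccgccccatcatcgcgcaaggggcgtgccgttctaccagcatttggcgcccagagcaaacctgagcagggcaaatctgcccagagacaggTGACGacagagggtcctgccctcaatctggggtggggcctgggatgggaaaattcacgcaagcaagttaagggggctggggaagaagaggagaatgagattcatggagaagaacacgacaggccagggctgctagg

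Tapasin bridges the heavy chain to TAP and edits which peptides are kept. Tapbp, at chr17:33915899-33929292 on the plus strand, stood at 316, 293, 315 and 513 CPM in KO-labelled libraries and 324, 291, 354 and 532 CPM in controls, with a log2 fold change of -0.06 (SE 0.26, edgeR adjusted p = 1, exact permutation p = 0.657). Its same-strand neighbour Zbtb22 overlaps it over 3422 bases.

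The immunoproteasome subunits take the places of constitutive catalytic subunits and change which peptide ends are produced. Psmb8 (LMP7), at chr17:34197721-34201454 on the plus strand, stood at 54.7, 57.1, 58.5 and 151 CPM in KO-labelled 1 to 4, against 60.7, 48.9, 57.0 and 182 CPM in controls 1 to 4. Psmb9 (LMP2), at chr17:34181987-34187764 on the minus strand, stood at 25.4, 19.9, 23.4 and 69.6 CPM in KO-labelled libraries and 22.9, 19.3, 21.3 and 81.5 CPM in controls. Psmb10 (MECL-1), on chromosome 8 at chr8:105935735-105938444 on the minus strand, stood at 35.6, 35.9, 36.6 and 89.7 CPM in KO-labelled libraries and 42.8, 35.8, 39.8 and 95.5 CPM in controls. In each, number 4 was far above the rest of its group and the other 6 libraries lay close together. The log2 fold changes were -0.12 (SE 0.53) for Psmb8, -0.07 (SE 0.60) for Psmb9 and -0.11 (SE 0.43) for Psmb10, each with an edgeR adjusted p of 1. With the block the 95% intervals were -0.25 to 0.17, -0.19 to 0.23 and -0.27 to 0.04 in the same order.

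Set against the constitutive subunit that each replaces, Psmb8 to Psmb5 per kilobase of exon was 0.327, 0.331, 0.339 and 0.964 in KO-labelled 1 to 4, against 0.335, 0.291, 0.272 and 0.657 in controls 1 to 4. Psmb9 to Psmb6 was 0.235, 0.185, 0.205 and 0.399 in KO-labelled libraries and 0.230, 0.197, 0.217 and 0.366 in controls. Both ratios were highest in number 4 of each group. Psmb10 to Psmb7 was 1.43, 1.52, 1.58 and 2.11 in KO-labelled libraries and 1.94, 1.66, 1.87 and 1.65 in controls, so number 4 was highest in the KO-labelled group and lowest among controls. The groups overlapped for 3 of 3 ratios. The level of a ratio, unlike its order among libraries, depends on the gene lengths used. With the longest transcript in place of all exons, mean CPM per kilobase went from 24.8 to 43.9 for Psmb8 and stayed at 55.7 for Psmb5. It went from 9.67 to 12.3 for Psmb9 and from 34.9 to 67.7 for Psmb6, and from 30.2 to 39.2 for Psmb10 and from 17.4 to 20.9 for Psmb7. Psmb5 itself stood at 41.7 CPM in KO-labelled 4 and 73.8 CPM in control 4, with 44.5 to 45.9 CPM in KO-labelled 1 to 3 and 44.6 to 55.7 CPM in controls 1 to 3.

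**Figure D3:**
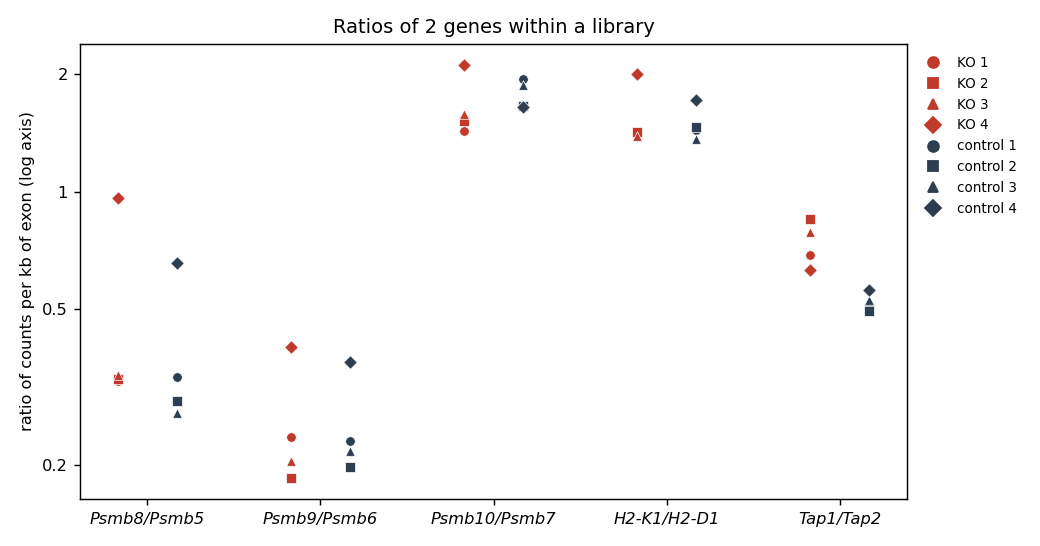
Ratios of counts per kilobase of exon between pairs of genes within each library on a log axis, KO-labelled libraries in red to the left of controls in dark blue. Tap1/Tap2 separates the groups, and Psmb8/Psmb5, Psmb9/Psmb6 and H2-K1/H2-D1 are highest in number 4 of each group.

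NLRC5 is the NLR family protein that drives transcription of class I genes, B2m, Tap1 and Psmb9, and is itself induced by interferon gamma. Nlrc5, at chr8:94434356-94527272 on the plus strand, stood at 45.0, 39.6, 42.2 and 50.3 CPM in KO-labelled 1 to 4, against 41.0, 35.9, 40.9 and 59.7 CPM in controls 1 to 4. It varied least of the 10 genes. The log2 fold change was 0.00 (SE 0.17, 95% interval -0.41 to 0.40, edgeR adjusted p = 1), and with the block the interval was -0.18 to 0.22.

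On the scale of CPM per kilobase of exon, the levels of the 10 genes spanned a wide range. B2m averaged 1964 ± 1120 (SD, n = 8), H2-K1 412 ± 274, H2-D1 256 ± 129 and Tapbp 101 ± 27.0. Below them came Psmb10 at 30.2 ± 15.0, Psmb8 at 24.8 ± 15.4, Tap2 at 19.5 ± 9.62, Tap1 at 12.0 ± 5.34, Psmb9 at 9.67 ± 6.84 and Nlrc5 at 5.22 ± 0.883. These SDs include the libraries numbered 4. Within a library, each gene was above the next in this order in 8 of 8 libraries, apart from Psmb8 over Tap2 and Tap1 over Psmb9, which held in 7 of 8 each. With the longest annotated transcript in place of all exons, Psmb8 and Psmb10 changed places and the other 8 kept their rank.

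The largest differences lay between library numbers and not between genotypes. KO-labelled 4 was 2.48 to 3.52 times the mean of KO-labelled 1 to 3 for H2-K1, H2-D1, B2m, Psmb8, Psmb9 and Psmb10, and control 4 was 2.42 to 3.85 times the mean of controls 1 to 3 for the same genes. Tap2 was at 2.29 and 2.45 times in KO-labelled and control libraries, Tap1 at 1.87 and 2.67, Tapbp at 1.67 and 1.65, and Nlrc5 at 1.19 and 1.52. In all, 7 of 10 members were more than 2-fold higher in number 4 in both genotypes, beside 7.43% of all genes tested. The 10 genes together made up 0.743% of the counts in KO-labelled 4 and 0.824% in control 4, against 0.295% to 0.309% and 0.275% to 0.326% in numbers 1 to 3. These ratios are a description, and no test of number 4 against the rest was run.

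Smaller shares of the related lists stood this high in number 4. Of 14 constitutive 20S proteasome genes, 1 was more than 2-fold higher in both genotypes, of 18 genes of the 19S particle 0, and of 11 tested genes of peptide loading and trimming 0. Of the other class I heavy chains and relatives 4 of 12 tested were, and of interferon-stimulated genes 7 of 28. Of interferon ligands, receptors and kinases 3 of 10 tested were (Jak2, Socs1 and Socs3). Of proteasome activators and assembly genes 2 of 10 were, and of receptors for class I and cytotoxic cells 1 of 5 tested, Pirb. The share of all genes tested was 7.43%. Of 16 class I transcription regulators 1, Ciita, was past 2-fold in both, with median ratios of number 4 to the rest of 1.19 in KO-labelled libraries and 1.15 in controls. Creb1, which binds the TGACG half-site, was at 0.549 and 0.462 times in KO-labelled and control libraries, and Nfya, a subunit of the CCAAT-binding factor, at 0.738 and 0.734 times. Irf1, which switches on class I and immunoproteasome genes, stood at 124 CPM in KO-labelled 4 and 114 CPM in control 4, against 69.99 to 72.7 CPM in KO-labelled 1 to 3 and 64.9 to 80.3 CPM in controls 1 to 3. Rfx5, a DNA-binding partner of NLRC5, stood at 31.5 CPM in KO-labelled 4 and 31.0 CPM in control 4, against 22.1 to 27.0 CPM in KO-labelled 1 to 3 and 18.9 to 23.6 CPM in controls 1 to 3. Ciita, the class II transactivator, stood at 42.8 and 13.4 CPM against 1.96 to 2.67 and 0.73 to 1.69 CPM.

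Of the interferon genes, 5 were looked at. Ifng, Ifnb1, Ifna2, Ifna4 and Ifnl2 had 0 counts in each of the 8 libraries, which allows up to 0.218 CPM in the shallowest. The receptor genes were well expressed, with Ifngr1 at 654 CPM in KO-labelled 4 and 473 CPM in control 4, against 291 to 317 CPM in KO-labelled 1 to 3 and 329 to 401 CPM in controls 1 to 3.

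Marker lists of several cell types differed in number 4. The osteoblast list was lowest there, at 2090 CPM in KO-labelled 4 and 3663 CPM in control 4, against 8237 to 12566 CPM in KO-labelled 1 to 3 and 5846 to 13689 CPM in controls 1 to 3. The 7 osteoclast markers summed to 6435 CPM in KO-labelled 4 and 9569 CPM in control 4, against 41.1 to 63.1 CPM in KO-labelled 1 to 3 and 38.6 to 120.4 CPM in controls 1 to 3. The 12 macrophage markers summed to 49851 CPM in KO-labelled 4 but to 35417 CPM in control 4, inside the range of controls 1 to 3. The T and NK cell list summed to 26.1 and 17.2 CPM in KO-labelled 4 and control 4, against at most 7.75 and 2.47 CPM in numbers 1 to 3. Nearly all of it was Cd4, with at most 1 count of Cd3e and 0 of Cd3d, Cd3g, Cd8b1 and Ncr1 in a library. The B cell list summed to 9.91 CPM in KO-labelled 4 and 9.72 CPM in control 4, nearly all Cd79b, with 0 counts of Pax5. The endothelial list summed to 33.3 CPM in KO-labelled 4 and 24.3 CPM in control 4, against 7.39 to 11.2 CPM in KO-labelled 1 to 3 and 7.94 to 9.56 CPM in controls 1 to 3. The dendritic cell list summed to at most 5.38 CPM in a library and the neutrophil list to at most 3.64 CPM. Their part in the class I levels was not tested.

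The other heavy chain genes set control 4 apart from all 7 other libraries. Of them 4 had at least 50 counts there and at most 5 in every other library. H2-Q1 had 557 counts in control 4 and at most 3 in any other library, H2-Q10 had 148 and at most 1, H2-Q2 had 102 and 0, and H2-T3 had 73 and 0. H2-Q10 is known as a secreted class I molecule of the liver and H2-T3 as the thymus leukaemia antigen of the gut epithelium. Number 4 of the KO-labelled group had 1 count of H2-Q1 and 0 of the other 3. H2-Bl, below that minimum, had 10 counts in control 4 and 0 in each other library.

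Across the whole table, 9 genes had at least 50 counts in control 4 and at most 5 in every other library. The same rule took 4 genes in KO-labelled 1 and 0 in each of the other 6 libraries. Of the 9 genes 7 could be placed by symbol, and 7 of 7 lay on chromosome 17 between 35320405 and 36190287, a stretch of 0.87 Mb with 52 of the 24321 placed genes of the table. Beside the 4 heavy chains they were Gm10499 (558 counts), Gm11127 (207) and Gm7030 (121). The 2 not placed were Rps18-ps4 (214 counts) and H2-Ea, the alpha chain of the class II molecule E, with 251 counts in control 4 and 0 in each of the 7 others. H2 genes differ between inbred strains in number and sequence, and H2-Ea is known to be silent in strains of the b haplotype such as C57BL/6.

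Further heavy chain genes also stood higher in control 4 than in KO-labelled 4. H2-K2 stood at 27.7 CPM in KO-labelled 4 and 59.3 CPM in control 4, H2-Q4 at 134 and 263 CPM, H2-Q6 at 3.50 and 8.60 CPM, and H2-T24 at 14.3 and 43.1 CPM. H2-K2 in the other libraries was at 6.25 to 7.82 CPM in the KO-labelled group and 4.78 to 6.61 CPM in controls. H2-T23 (Qa-1), a ligand of an inhibitory receptor on natural killer cells, and H2-M3, which presents formylated peptides, did not stand higher, at 205 and 43.0 CPM in KO-labelled 4 and 198 and 41.5 CPM in control 4. H2-M2 was high in both, at 246 counts in KO-labelled 4 and 276 in control 4, against 5 to 8 and 6 to 7 counts in numbers 1 to 3.

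**Figure D4:**
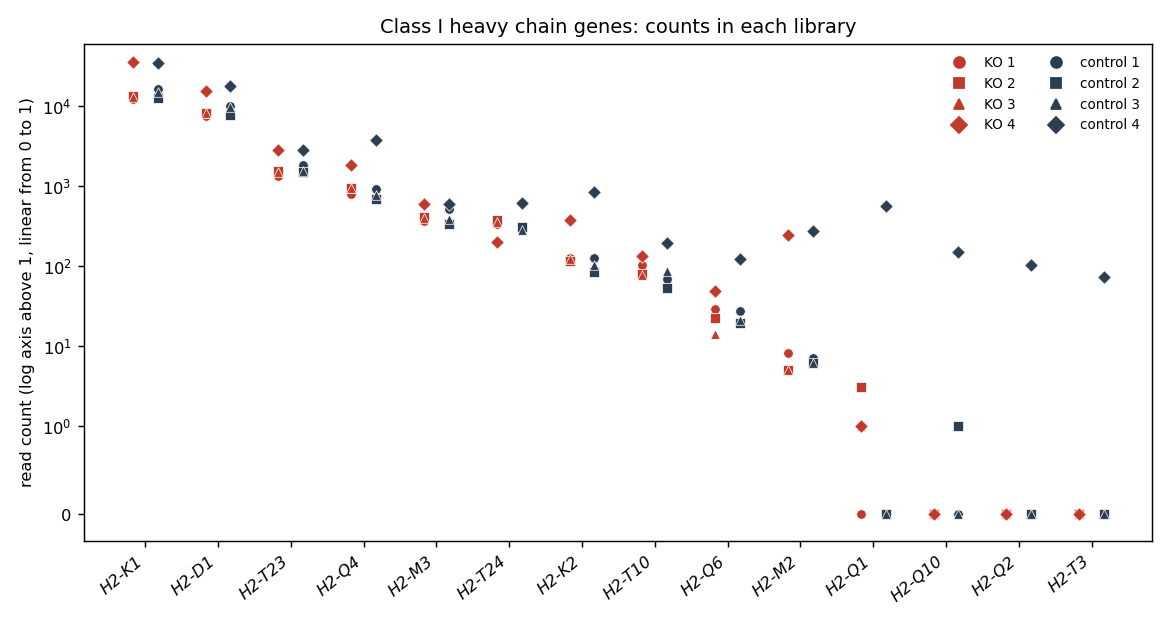
Read counts of 14 class I heavy chain genes in each library, KO-labelled libraries in red to the left of controls in dark blue, on an axis that is logarithmic above 1 and linear from 0 to 1. H2-Q1, H2-Q10, H2-Q2 and H2-T3 have 557, 148, 102 and 73 counts in control 4 and at most 3 elsewhere.

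The ratio of H2-K1 to H2-D1 counts was 1.61, 1.62, 1.59 and 2.28 in KO-labelled 1 to 4, against 1.64, 1.66, 1.55 and 1.95 in controls 1 to 4. The heavy chain genes are close copies of each other, and the sources used here do not give how reads with several alignments were counted, so their counts are uncertain as levels of single genes. The part of H2 sequence differences in the counts of control 4 was not tested. Without control 4 and KO-labelled 4 the log2 fold change of H2-K1 was -0.16 (SE 0.09, edgeR adjusted p = 0.273) and that of H2-D1 -0.15 (SE 0.10, edgeR adjusted p = 0.332), and neither passed.

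In 9 lists of related genes and the members, 0 of 134 tested genes passed between KO-labelled and control libraries with edgeR. With the block 4 of the 134 passed, which is 2.99% beside 2.49% of all genes. They were Hfe, Ulbp1 and Ciita, which rose, and Irf7, which fell. Left without number 1, 2 or 3 in both groups, 0 of these calls stood with the block. Of the 134, 32 passed in numbers 1 to 3 alone, 23.9% beside 14.1% of all genes. In all 8 libraries DESeq2 called 4 of the 134, 2.99% beside 1.37% of all genes. Limma-voom with quality weights called 28, 20.9% beside 16% of all genes.

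Among the relatives of class I heavy chains, Hfe, which controls iron uptake and also pairs with beta-2 microglobulin, was higher in each KO-labelled library. It stood at 197, 185, 187 and 178 CPM in KO-labelled 1 to 4, against 144, 126, 139 and 142 CPM in controls 1 to 4, with no overlap, as for 2.32% of all genes with the KO-labelled group above. Its log2 fold change was 0.44 (SE 0.10, edgeR adjusted p = 0.471), and 0.44 with an adjusted p of 0.0385 with the block. Fitted to all 8 libraries, DESeq2 called Hfe higher (0.43, adjusted p = 6.12e-05), beside 0.989% of all genes. Limma-voom with quality weights also called it higher (0.45, adjusted p = 0.000665), beside 8.58%. Mr1, which presents vitamin metabolites, had 0.27 (SE 0.15), Fcgrt, the neonatal Fc receptor, had 0.35 (SE 0.23), and H2-Q5 had -0.48 (SE 0.42). None of these 3 passed with edgeR in all 8 libraries, with or without the block. Limma-voom with quality weights called Mr1 (0.32, adjusted p = 0.0171) and Fcgrt (0.49, adjusted p = 0.0032) higher. Hfe, Mr1, Fcgrt and H2-T24 rose in numbers 1 to 3 alone, 4 of 12 tested, beside 7.78% of all genes.

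Peptide loading and trimming genes had 8 positive and 3 negative log2 fold changes, with a median of 0.23 against -0.016 over all genes. With edgeR 0 of 11 passed, with or without the block. Blmh, a cytosolic peptidase, had 0.35 (SE 0.14), the disulfide isomerase Pdia3 of the loading complex 0.31 (SE 0.14), the tapasin relative Tapbpl 0.27 (SE 0.15) and the chaperone Canx 0.25 (SE 0.18). Of the 11, 6 rose in numbers 1 to 3 alone, beside 7.78% of all genes. They were these 4 with Calr, the chaperone that holds the heavy chain, and the peptidase Tpp2. Fitted to all 8 libraries, limma-voom with quality weights called the same 6 higher, beside 8.58% of all genes. Calr had 0.56 (SE 0.08) in that fit and 0.57 (SE 0.08) in numbers 1 to 3 alone, against 0.28 (SE 0.26) with edgeR in all 8. Calr stood at 937, 1027 and 953 CPM in KO-labelled 1 to 3, against 598, 706 and 662 CPM in controls 1 to 3. It stood at 1084 CPM in KO-labelled 4 and 1334 CPM in control 4, the opposite order.

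Of the constitutive 20S proteasome genes 5 were positive and 9 negative, with a median of -0.04. With edgeR 0 of 14 passed, with or without the block. Psmb5 had -0.32 (SE 0.16), Psmb2 0.14 (SE 0.21), Psmb1 -0.13 (SE 0.20) and Psma3 -0.12 (SE 0.23). Psmb2 rose in numbers 1 to 3 alone, at 0.25 (edgeR adjusted p = 0.0299), 1 of 14 beside 7.78% of all genes. Proteasome activators and assembly genes had 3 positive and 7 negative values and a median of -0.04, and 0 of 10 passed with edgeR. Psmf1, an inhibitor of the 20S core, was lower in each KO-labelled library than in any control and had -0.34 (SE 0.12, edgeR adjusted p = 0.81), where 1.27% of all genes had the KO-labelled group below. Psmf1 fell in numbers 1 to 3 alone, at -0.41 (edgeR adjusted p = 0.0182), 1 of 10 beside 6.29% of all genes. Limma-voom with quality weights also called Psmf1 lower, at -0.46, beside 7.46% of all genes. Psme3 and Psmg1 had -0.13 each and Pomp 0.07. The 19S particle had 9 positive and 9 negative values and a median of 0. Among them were Psmd8 at -0.16, Psmc1 at 0.17, Psmc3 at 0.18 and Psmd1 at 0.09. With edgeR 0 of 18 passed, and limma-voom with quality weights called Psmc1 and Psmc3 higher, beside 8.58% of all genes. Psmc1 and Psmc3 rose in numbers 1 to 3 alone, at 0.25 each, and Psmd4 fell, at -0.20. The edgeR adjusted p were 0.022, 0.0286 and 0.0472 in that order. Thus 2 of 18 rose and 1 of 18 fell there, beside 7.78% and 6.29% of all genes.

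Of 16 class I transcription regulators 10 were positive and 6 negative, with a median of 0.03, and with the block Ciita alone passed. Ciita had 1.19 with the block (SE 0.22, edgeR adjusted p = 0.0496) and 1.53 (SE 1.32) without it. Irf2 had -0.16, the NF-kappaB subunit Rela -0.15 and Stat2 -0.14, and these did not pass with edgeR in all 8 libraries. Limma-voom with quality weights called Irf2 (-0.23, adjusted p = 0.0266) and Rela (-0.26, adjusted p = 0.0141) lower, beside 7.46% of all genes. Irf1 had 0.02 (SE 0.25) and Rfx5 0.17 (SE 0.20). Rela fell in numbers 1 to 3 alone, at -0.24 (edgeR adjusted p = 0.0481), 1 of 16 beside 6.29% of all genes. Interferon receptor and kinase genes had 4 positive and 6 negative values and a median of -0.01, and 0 of 10 passed with edgeR. Ifnar1 had -0.25 (SE 0.14), Ifngr2 -0.24 (SE 0.19), Jak1 0.15 and Tyk2 0.09. In numbers 1 to 3 alone the receptor genes Ifnar1 and Ifngr2 fell, with edgeR adjusted p of 0.0295 and 0.00675, as did Socs3, an inhibitor of cytokine signalling. These were 3 of 10, beside 6.29% of all genes. Fitted to all 8 libraries, limma-voom with quality weights called Ifnar1 and Ifngr2 lower, beside 7.46% of all genes.

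Interferon-stimulated genes had 13 positive and 15 negative values, with a median of -0.03, and 0 of 28 passed with edgeR without the block. The guanylate-binding proteins Gbp5 (0.85, SE 0.21), Gbp3 (0.65, SE 0.18) and Gbp7 (0.54, SE 0.19) and the antiviral gene Ifit2 (0.68, SE 0.26) had the smallest unadjusted p. Gbp5 stood at 14.0, 12.0, 12.9 and 7.79 CPM in KO-labelled 1 to 4, against 5.87, 6.63, 5.998 and 7.48 CPM in controls 1 to 4. Numbers 1 to 3 alone had 8 that rose, Gbp3, Gbp5, Gbp7, Ifit1, Ifit2, Ifit3, Iigp1 and Rsad2, and 1 fell, Irf7. Thus 8 of 28 of these genes and 1 of 10 members, Tap1, rose there, beside 7.78% of all genes. Fitted to all 8 libraries, limma-voom with quality weights called the same 8 higher and Ifi35 lower, beside 8.58% and 7.46% of all genes. Gbp5 had 1.07 in that fit and 1.07 in numbers 1 to 3 alone. DESeq2 called Gbp5 higher, beside 0.989% of all genes.

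Genes for receptors and ligands of cytotoxic cells had 1 positive and 4 negative values among 5 tested. Ulbp1, a stress ligand of the activating receptor NKG2D, stood at 13.8, 14.5, 13.6 and 14.0 CPM in KO-labelled 1 to 4, against 6.99, 8.71, 7.57 and 9.93 CPM in controls 1 to 4. The groups did not overlap, as for 2.32% of all genes with the KO-labelled group above. The log2 fold change of Ulbp1 was 0.75 (SE 0.15, edgeR adjusted p = 0.471), and 0.76 with an adjusted p of 0.0412 with the block. Klra2, of the Ly49 family of class I receptors, stood at 16.3, 17.1, 16.6 and 13.2 CPM in KO-labelled 1 to 4, against 79.5, 54.2, 74.3 and 12.6 CPM in controls 1 to 4. In numbers 1 to 3 alone it fell, at -2.06 (SE 0.14, edgeR adjusted p = 0.000217), and without control 4 alone it was the 1 gene of 134 called, while in number 4 both libraries were low. Pirb, an inhibitory receptor that binds class I molecules, also fell in numbers 1 to 3 alone, at -0.65 (SE 0.11, edgeR adjusted p = 0.00559), and stood at 1194 CPM in KO-labelled 4 and 1110.5 CPM in control 4, against 183 to 205 CPM in KO-labelled 1 to 3 and 256 to 334 CPM in controls 1 to 3. Ulbp1 rose in numbers 1 to 3 alone, so 1 of 5 rose and 2 of 5 fell, beside 7.78% and 6.29% of all genes. Fitted to all 8 libraries, DESeq2 and limma-voom with quality weights called Ulbp1 higher and Klra2 lower. The shares of all genes were 0.989% higher and 0.382% lower with DESeq2, and 8.58% and 7.46% with quality weights. Klra2 had -2.07 with quality weights and -1.81 with edgeR. Quality weights also called Pirb lower. Lilrb4a had -0.23 (SE 0.30) and Pira2 -0.17 (SE 0.37) in all 8 libraries.

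The profile of the members over the 8 libraries was compared with that of 11516 other genes of sufficient level, by the root mean square difference of log2 CPM after each gene's own mean was removed. The nearest were Hax1 at 0.0358, the major vault protein gene Mvp at 0.0362, the membrane fusion gene Vamp8 at 0.0486, the late endosome tetraspanin Cd63 at 0.0523 and Eml2 at 0.0622. Mvp stood at 141, 138, 143 and 313 CPM in KO-labelled 1 to 4, against 157, 133, 155 and 367 CPM in controls 1 to 4. Of the members themselves Psmb10 and H2-D1 were nearest to the mean profile, at 0.0611 and 0.0716, and Nlrc5 farthest, at 0.368. Each member is part of that mean. Set among the 11516 other genes, Psmb10 ranked 5, H2-D1 8, B2m 36, Tap2 115 and Psmb8 221. Tap1 ranked 389, H2-K1 672, Tapbp 977, Psmb9 992 and Nlrc5 2595, so many other genes lay nearer than these. All profiles share the high values of number 4.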

How the data were processed

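RNA from 8 libraries was counted. The submitters' processing notes list featureCounts 2, STAR 2.7.11b and the builds mm10 and GRCm38. The deposited values are raw counts by gene symbol, whole and not normalized. Genes were filtered with filterByExpr (minimum count 10), scaled with TMM, and tested with edgeR 4.0.16 in R 4.3.3 (quasi-likelihood F test, robust, genotype alone), with Benjamini-Hochberg adjustment over all 12837 genes and a threshold of 0.05. CPM and log2 CPM (prior count 2) were computed here. DESeq2 1.42.0 and limma 3.58.1 were alternatives, and the code was tested on simulated data. Quality weights give less weight to libraries that vary more, so their calls are not separate evidence from those of numbers 1 to 3. Coordinates and exon lengths are from GENCODE M21 on GRCm38. Same-numbered libraries correlated after group means were removed, with r of 0.46 to 0.829 over all 8 and 0.161 to 0.376 among numbers 1 to 3. All were above the minimum of 0.1. Unlike-numbered libraries of the 2 groups had r of -0.757 to 0.572 over all 8 and -0.255 to -0.0234 among numbers 1 to 3. Of the 8 libraries, 6 correlated best with their own number. Over all 8, number 4 was far off in both groups, which gives numbers 1 to 3 a shared deviation whatever the pairing. Among numbers 1 to 3 deviations sum to 0 within a group, so positive same-numbered values pull the unlike ones below 0. On this limited ground, which is in the data and not in a label, the numbers were treated as pairs in the fits with a block. Pairs of libraries within a group differed beyond sampling noise (chi-square per degree of freedom 8.56 to 307). Members and lists were chosen with earlier results of these data known. The genes named are the members, up to 4 per list by unadjusted p, counterparts and interferon genes, and the 5 nearest profiles. Genes counted in control 4 alone, H2-M2, other H2 genes, Calr, Creb1, Nfya and genes named for numbers 1 to 3 or the block were chosen after their values were seen. Intervals cover the spread between libraries, and the limit for a count of 0 uses 3 counts and covers counting error only.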

Additional observations from a re-analysis of the deposited data

Results flagged for a closer look

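Of 20 groups of 4 libraries (10 genes in 2 genotypes), 17 held a library far from the other 3, and in 17 of 17 it was number 4, on the high side. The gap to the nearest library was past the 95% critical value of Dixon's test, which chance gives in about 1 of 20 groups. The 10 genes come from the same libraries and are not separate draws. Over all 12837 genes tested, number 4 was as far on the high side in 16.2% of 25674 such groups and on the low side in 6.84%. The values in KO-labelled 4 were 2579 CPM for H2-K1, 1132 for H2-D1, 2962 for B2m, 104.6 for Tap1, 114.6 for Tap2, 513 for Tapbp, 151 for Psmb8, 69.6 for Psmb9 and 89.7 for Psmb10. Those in control 4 were 2433 CPM for H2-K1, 1248 for H2-D1, 3497 for B2m, 118 for Tap1, 146 for Tap2, 182 for Psmb8, 81.5 for Psmb9 and 95.5 for Psmb10. Nlrc5 in both genotypes and Tapbp in controls did not reach this limit.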

How the results depend on the processing

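With edgeR 0 of the 10 members passed in all 8 libraries, nor with DESeq2 size factors, upper quartile factors, no filter, DESeq2, limma-voom, limma-voom with quality weights or the replicate block. In numbers 1 to 3 only, Tap1 passed at 0.34, and 0.34 with the replicate block, where Tap2 passed at -0.25. Signs turned for members near 0. Nlrc5 was 0.01 with upper quartile factors, 0.00 with no filter, 0.02 with limma-voom, 0.07 with quality weights, 0.02 with the replicate block, and 0.11 in numbers 1 to 3 with and without it. Psmb9 was 0.03 with limma-voom, 0.08 with quality weights, 0.02 with the replicate block, 0.12 in numbers 1 to 3 and 0.11 there with it. Psmb8 was 0.01 with quality weights, 0.03 in numbers 1 to 3 and 0.04 there with the block. The cause was not tested.

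Over all genes, 0 rose and 0 fell in all 8 libraries with edgeR and with limma-voom, although 631 had an unadjusted p under 0.05 with edgeR. DESeq2 called 127 higher and 49 lower, quality weights 1101 and 958, the replicate block 168 and 151, numbers 1 to 3 1005 and 812, and numbers 1 to 3 with the block 1593 and 1539. Of the 134 pathway genes these fits called 4, 28, 4, 32 and 42.

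Leaving out 1 library at a time, or 1 number from both groups with the replicate block, gave 0 to 25 genes higher and 0 to 13 lower, and 0 to 1 pathway genes. Signs also turned, among other cases, without KO-labelled 1, 2 or 3 for H2-K1, Psmb8, Psmb9 and Psmb10 in each case. Without control 4 they turned for every member but Tap1, with H2-K1 at 0.53 and Psmb9 at 0.70. Tap1 turned without KO-labelled 4, at -0.17, without control 2, at -0.04, and, at 0.00 after rounding, without control 1 or 3. The calls came without KO-labelled 4 (17 higher, 7 lower) and without control 4 (25 higher, 13 lower). The members' log2 fold changes ran from -0.74 to 0.53 for H2-K1, -0.60 to 0.29 for H2-D1, -0.62 to 0.41 for B2m, -0.17 to 0.61 for Tap1, -0.70 to 0.14 for Tap2, -0.29 to 0.15 for Tapbp, -0.62 to 0.53 for Psmb8, -0.66 to 0.70 for Psmb9, -0.57 to 0.32 for Psmb10 and -0.08 to 0.17 for Nlrc5, and their median from -0.61 to 0.36. Without pairing, the 95% interval of H2-K1 ran from -1.37 to 1.30, and with it from -0.31 to 0.12.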
